A study of Mus musculus with 4 samples.

Results

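The genes described are the machinery of RNA polymerases I and III (Pol I and Pol III): the specific subunits of both enzymes, the subunits that they share, the factors that bring them to their promoters and the repressor *Maf1*. The list of 32 gene symbols was fixed by role, with no threshold on values. It was chosen with earlier results of these data known, and 31 of the 39179 genes in the count tables were members. *Gtf3c2* was not analysed here. All 31 passed the filter on low counts and were among the 11483 genes tested, with 11 Pol I members (the shared subunits *Polr1c* and *Polr1d* counted with them) and 20 Pol III members.

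RNA was sequenced from 2 libraries of parental B16F1 control cells and 2 libraries of tumor repopulating cells (TRCs). B16F1 is a mouse melanoma cell line that is usually grown on rigid dishes, and the TRCs are the spheroids that single B16F1 cells formed in soft 3D fibrin gels of 90 Pa, isolated on day 5. Both groups carry the replicate numbers 1 and 3 and come from the same line, with no genetic manipulation named, and selection of cells by the gel and growth in the gel cannot be told apart. The sources do not say that libraries of one group came from separate cultures, and p-values then measure the spread between these libraries, which may be technical.

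Pol I has a single kind of target, the repeated ribosomal DNA (rDNA) genes in the nucleolus, from which it makes the long precursor of the large ribosomal RNAs. Pol III makes short RNAs, among them the transfer RNAs, the smallest ribosomal RNA and several small RNAs of the nucleus and the cytoplasm. Each enzyme is brought to its promoters by its own factors, and the output of both is known to follow the growth rate of a cell.

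The 4 libraries held between 35948295 and 43511554 counts on genes, so that 3 counts, the smallest number taken as detectable, corresponded to 0.0689 to 0.0835 CPM (counts scaled to the size of the library), a bound for counting error alone. The share of alignments with several places in the genome, which were counted on no gene, was 15.2% and 17.1% in the controls and 18.3% and 25.2% in TRCs, and the part of this difference in the results was not tested. All 9 markers of the melanocyte lineage were detected, with a summed level of 16261 to 19458 CPM in the controls and 24575 to 27363 CPM in TRCs. Of these markers *Dct* alone was differentially expressed by the test used below. It had 5694 and 4334 CPM in the controls and 11154 and 10027 CPM in TRCs. The leukocyte markers *Ptprc*, *Adgre1* and *Cd3e* were at 0 in every library, and *Cd68* was at 1.59 to 4.12 CPM. The 4 endothelial markers summed to at most 0.198 CPM with *Cdh5* and *Kdr* at 0. The 4 keratinocyte markers summed to at most 0.0567 CPM with *Krt5*, *Krt14* and *Krt1* at 0, and the 5 fibroblast markers to 9.83 to 11.4 CPM in the controls and 3.10 to 5.65 CPM in TRCs. Of the fibroblast markers *Col1a2* alone was differentially expressed, with 6.70 and 7.79 CPM in the controls and 1.52 and 1.01 CPM in TRCs.

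The Pol I machinery gave lower values in TRCs than in parental B16F1 control cells, with the lowest fold changes in *Polr1a*, *Polr1b* and *Polr1e*, 3 subunits of the enzyme itself. In edgeR's exact test, 4 of the 11 Pol I members were downregulated at a false discovery rate (FDR, Benjamini-Hochberg over all genes tested) under 0.05, namely *Polr1a*, *Polr1b*, *Polr1e* and *Ubtf*. Across all genes tested, 15.9% were differentially expressed, with 7.05% downregulated and 8.81% upregulated. A decrease of at least 2-fold was found for 3 of the Pol I members against 2.66% of all genes. All 11 had a negative log2 fold change, with a median of −0.56 and a range from −1.33 to −0.05, beside a median of 0.0034 over all genes tested. Both TRC libraries lay below both control libraries for 8 of the 11, which was the case for 30.4% of all genes. The members are not replicates of a condition, and the list is described by these counts and this median with no test of its own. In bulk RNA, fewer cells that express a gene and less of its RNA per cell cannot be told apart, and CPM gives a share of the counted RNA and not an amount per cell.

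In the Pol III machinery, *Polr3e* and *Gtf3a* were downregulated, 2 of 20 members beside 7.05% of all genes tested. None of the 20 changed 2-fold at an FDR under 0.05. The median log2 fold change was −0.36, with a range from −0.79 to 0.67. Negative values were found for 14 of the 20 (70%, against 49.7% of all genes tested). The sign of *Polr3g*, at 0.02, turned negative with scaling by library size only. Both TRC libraries lay below both controls for 12 of the 20, a pattern found for 30.4% of all genes. They lay above both controls for *Polr3gl* and *Maf1*, a pattern found for 30.2% of all genes. No member of either machinery was upregulated by edgeR's exact test, by its quasi-likelihood test or by DESeq2, and none that was higher in TRCs reached an unadjusted p under 0.05. In the exact test, 11 members had an unadjusted p under 0.05, 6 of the 11 for Pol I and 5 of the 20 for Pol III. All 11 were lower in TRCs. Among the 11483 genes tested, 3220 had such a p, with 1517 lower and 1703 higher.

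**Figure D1:**
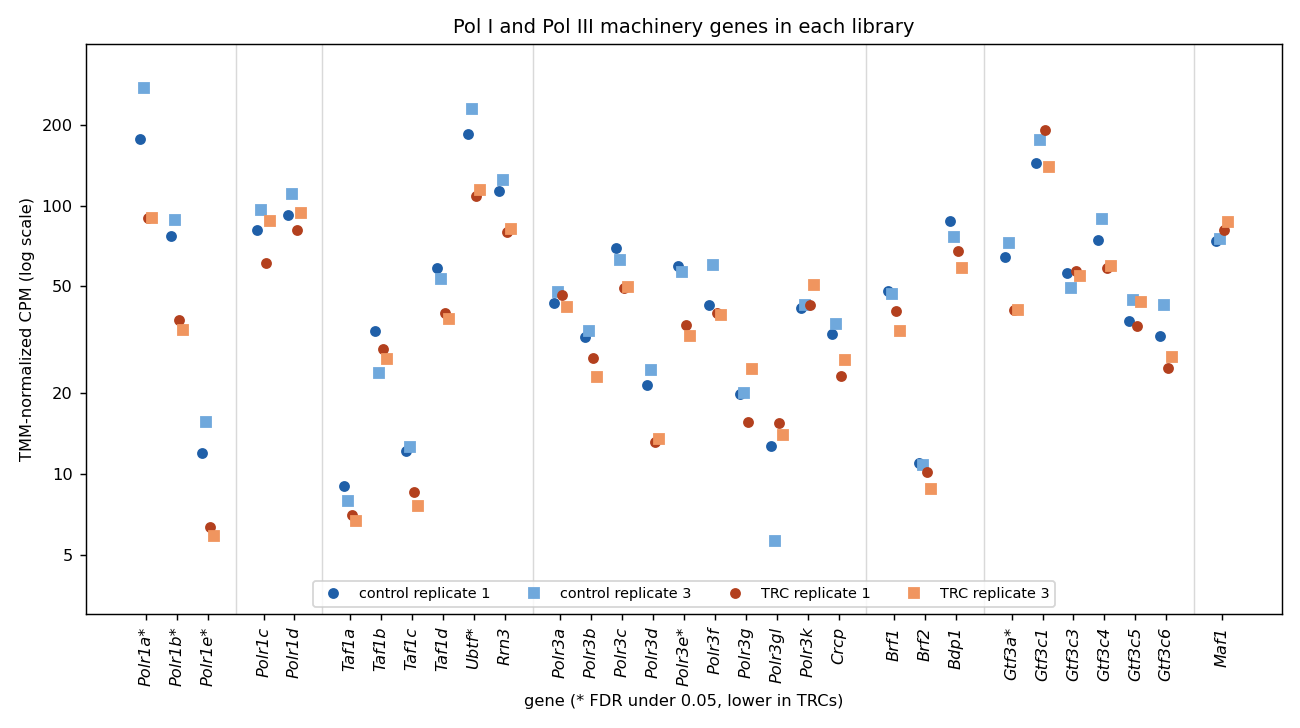
Level of each of the 31 members in each library, as TMM-normalized CPM on a log axis, with control replicates in blue, TRC replicates in red and orange, and grey lines between Pol I subunits, shared subunits, Pol I initiation factors, Pol III subunits, TFIIIB, TFIIIA with TFIIIC, and *Maf1*. The asterisk marks the 6 genes with an FDR under 0.05, in which both TRC libraries sit below both controls.

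The catalytic core of Pol I is formed by its largest subunit, *Polr1a*, and its second largest, *Polr1b*, which hold the active site between them. The gene *Polr1a* (chromosome 6, 71909053 to 71984935 of GRCm38, plus strand) had 177 CPM in control replicate 1, 275 CPM in control replicate 3 and 89.6 CPM in each TRC library (the order of replicates 1 and 3 is kept throughout). The controls differed from each other by more than the TRCs did, and both stood above both TRC libraries. With means of 226 ± 69.3 CPM in the controls and 89.6 ± 0.0293 CPM in TRCs (SD, n = 2 each), the log2 fold change was −1.33 (standard error, SE, 0.26 from DESeq2; FDR 1.65e-05), the largest decrease among the members.

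*Polr1b* (chromosome 2, 129100995 to 129126594, plus strand) had 77.3 and 88.5 CPM in the controls and 37.4 and 34.3 CPM in TRCs. Its replicates lay close together in both groups, and no TRC library reached a control library. The log2 fold change was −1.21 (SE 0.21, FDR 5.56e-06). These were the 2 members whose FDR stayed under 0.05 whichever single library was left out, with log2 fold changes from −1.62 to −0.98 for *Polr1a* and from −1.30 to −1.11 for *Polr1b*.

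*Polr1e* (chromosome 4, 45018583 to 45036565, plus strand), encodes one partner of a pair that resembles the general factor TFIIF of Pol II and helps Pol I to start and to elongate. Per kb of exon it had the lowest level of the downregulated members in every library. Its values were 11.99 and 15.6 CPM in the controls and 6.35 and 5.84 CPM in TRCs, from 243 to 551 counts per library. The groups did not overlap, and the log2 fold change was −1.18 (SE 0.32, FDR 0.0168). This call needed both replicates of TRCs and control replicate 3, since the FDR was 0.179 without control replicate 3, 0.153 without TRC replicate 1 and 0.216 without TRC replicate 3.

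The promoters of *Polr1a* and *Polr1b* are shown because these were the most strongly changed members. The windows are from RefSeq on GRCm38.p6 and give the 250 bases before the annotated start, 5′ to 3′ on the strand of the gene, at chr6:71908803-71909052, plus strand, and chr2:129100746-129100995, plus strand. Capitals, in this and the later promoters, mark any of the following motifs on either strand: the E-box CACGTG bound by Myc and related factors, the ETS letters CCGGAAG, the NRF1 core GCGCATGC, the YY1 letters CAAGATGGC and the cAMP response element TGACGTCA.
Polr1a: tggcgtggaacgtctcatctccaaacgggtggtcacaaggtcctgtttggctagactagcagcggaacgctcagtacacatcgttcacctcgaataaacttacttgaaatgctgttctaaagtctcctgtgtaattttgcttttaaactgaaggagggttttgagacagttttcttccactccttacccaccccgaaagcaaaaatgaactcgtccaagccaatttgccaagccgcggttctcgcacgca
Polr1b: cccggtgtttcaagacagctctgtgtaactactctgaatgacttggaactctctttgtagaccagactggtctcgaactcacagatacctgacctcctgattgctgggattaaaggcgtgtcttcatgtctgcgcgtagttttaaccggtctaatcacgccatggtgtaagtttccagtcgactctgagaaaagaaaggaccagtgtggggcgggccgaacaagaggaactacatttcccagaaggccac
Neither window held any of the 5 motifs, which says only that these letters are not in these bases. The C and G content was 47.6% for *Polr1a* and 49.6% for *Polr1b*, with 13 and 10 CG pairs.

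The subunits *Polr1c* and *Polr1d*, which form the assembly platform of Pol I and of Pol III alike, did not pass the test by any of the 3 tools, nor at an unadjusted p under 0.05. *Polr1c* had 80.8 and 96.3 CPM in the controls and 60.9 and 87.5 CPM in TRCs, a log2 fold change of −0.25 (FDR 0.544). *Polr1d* had 91.8 and 110 CPM against 80.7 and 93.5 CPM, a log2 fold change of −0.22 (FDR 0.587). The groups overlapped in both genes. Without these subunits, 4 of 9 Pol I members were downregulated, beside 7.05% of all genes tested, with a median log2 fold change of −0.61.

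Pol I finds the rDNA promoter through *Ubtf*, an HMG box protein that bends and marks active rDNA, through the selectivity complex of TBP with *Taf1a*, *Taf1b*, *Taf1c* and *Taf1d*, and through *Rrn3*, which links the enzyme to that complex and is regulated by growth signals. *Ubtf* (chromosome 11, 102304560 to 102319742, minus strand) had 184 and 229 CPM in the controls and 109 and 114 CPM in TRCs. Both TRC libraries were far below both controls, which differed more from each other than the TRCs did. Its log2 fold change was −0.89 (SE 0.21, FDR 0.00233). The FDR was 0.0703 without control replicate 3, 0.0826 without TRC replicate 1 and 0.0503 without TRC replicate 3.

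*Rrn3* (chromosome 16, 13780708 to 13814839, plus strand) had 113 and 124 CPM in the controls and 79.5 and 81.5 CPM in TRCs. The replicates of each group were close and the groups did not overlap, but the change did not pass the threshold, with a log2 fold change of −0.56 (SE 0.20, FDR 0.0629). DESeq2's Wald test called it lower, with an adjusted p of 0.03. The *Rrn3* promoter is shown because it was the only Pol I member with the E-box, which is at −215 and −48 from the start (chr16:13780449-13780698, plus strand).
Rrn3: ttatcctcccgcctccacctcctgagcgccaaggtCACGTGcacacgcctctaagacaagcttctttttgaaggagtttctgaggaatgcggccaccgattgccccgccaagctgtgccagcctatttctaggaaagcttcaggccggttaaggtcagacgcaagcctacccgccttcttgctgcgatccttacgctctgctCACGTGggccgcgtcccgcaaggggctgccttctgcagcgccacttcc
Bases here are counted from −1, the last base before the start. The same window, extended by 50 bases past the start, held the ETS letters on the minus strand at −5 and 19, where they cross or follow the printed end.

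None of the 4 selectivity complex subunits passed the test by the 3 tools, and *Taf1d* alone had an unadjusted p under 0.05. *Taf1d* had 58.5 and 53.3 CPM in the controls and 39.9 and 37.8 CPM in TRCs (log2 fold change −0.52, FDR 0.1), and *Taf1c* 12.1 and 12.6 CPM against 8.59 and 7.60 CPM (−0.61, FDR 0.265). In *Taf1a*, at 8.97 and 7.93 CPM against 7.05 and 6.68 CPM, the log2 fold change was −0.30 (FDR 0.667). Only *Taf1b* overlapped between the groups, with 34.2 and 23.7 CPM in the controls and 29.1 and 26.8 CPM in TRCs and a log2 fold change of −0.05 (FDR 0.929). *Taf1d* hosts small nucleolar RNAs, 8 of which are counted as genes of their own, and 16.7% of the exon length of *Taf1c* lies over *Dnaaf1* on the opposite strand, a gene with at most 2 counts in a library.

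Pol III has its own pair of catalytic subunits, *Polr3a* and *Polr3b*. *Polr3a* (chromosome 14, 24448696 to 24487058, minus strand) had 43.2 and 47.8 CPM in the controls and 46.2 and 41.7 CPM in TRCs. The libraries of both groups were intermixed, and the log2 fold change was −0.05 (SE 0.22, FDR 0.922). *Polr3b* had 32.3 and 34.2 CPM against 27.1 and 23.0 CPM, which did not overlap, with a log2 fold change of −0.41 (FDR 0.299).

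The contrast between the catalytic subunits of both enzymes can be read within each library, where scaling plays no part and a gene's length cancels between libraries. The ratio of *Polr1a* to *Polr3a* CPM was 4.09 and 5.75 in the controls and 1.94 and 2.15 in TRCs. The ratio of *Polr1b* to *Polr3b* CPM was 2.39 and 2.59 in the controls and 1.38 and 1.495 in TRCs. Both ratios were lower in each TRC library than in each control library. Per kb of exon, *Polr1a* stood above *Polr3a* in the controls, at 14.9 and 23.1 against 7.42 and 8.19 CPM per kb. In TRCs the *Polr1a* and *Polr3a* levels per kb lay side by side, at 7.55 in both replicates for *Polr1a* and 7.93 and 7.16 for *Polr3a*. This closeness rests on exon lengths of 11871 bases for *Polr1a* and 5828 for *Polr3a*, each all annotated exons of the gene joined. By CPM, *Polr1a* stayed above *Polr3a* in both TRC libraries, as the ratios show. For *Polr1b* the levels were 13.3 and 15.3 CPM per kb in the controls and 6.44 and 5.91 in TRCs, and for *Polr3b* 6.14 and 6.49 in the controls and 5.15 and 4.36 in TRCs.

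**Figure D2:**
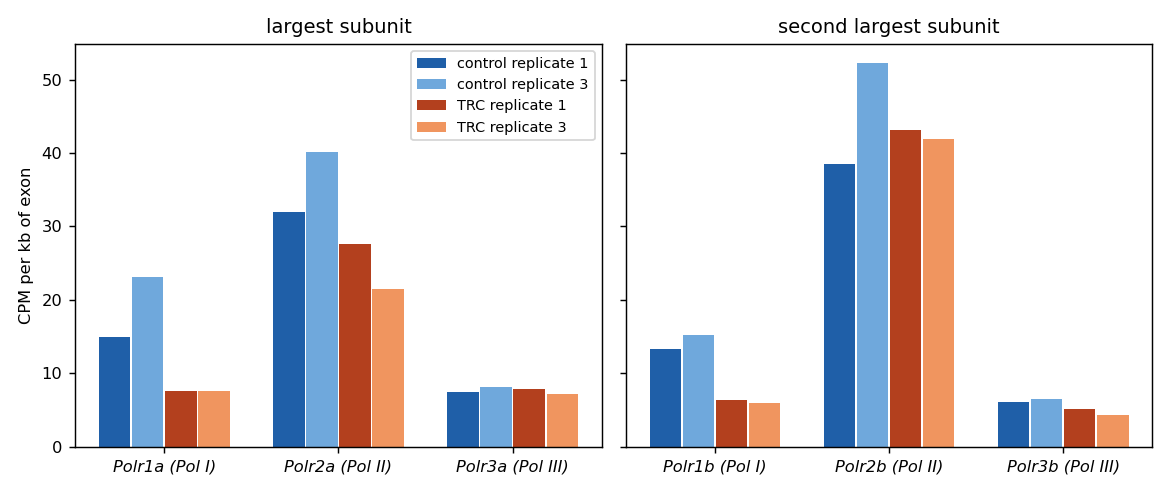
Levels of the largest (left) and second largest (right) subunit of Pol I, Pol II and Pol III in each library, as bars of TMM-normalized CPM per kb of exon, 1 bar per library with no error bar. *Polr1a* goes from 14.9 and 23.1 in the controls to 7.55 in both TRC libraries, next to *Polr3a* at 7.93 and 7.16, while *Polr2b* overlaps between the groups. Exon length is that of all annotated exons joined, so heights of different genes depend on the annotation.

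The Pol II counterparts serve as a comparison within the same libraries. *Polr2a*, the largest subunit of the enzyme that transcribes protein-coding genes, had 226 and 284 CPM in the controls and 195 and 152 CPM in TRCs, without overlap (log2 fold change −0.56, FDR 0.102). *Polr2b* had 180 and 244 CPM against 201 and 195 CPM (−0.10, FDR 0.844), and *Polr2c*, of the assembly platform of Pol II, 87.5 and 82.6 CPM against 66.6 and 71.0 CPM (−0.31, FDR 0.373). Of the 8 subunits found only in Pol II, 0 passed edgeR's exact test, the quasi-likelihood test or DESeq2's Wald test, 1 had an unadjusted p under 0.05, and the median log2 fold change was −0.15. The ratio of *Polr1a* to *Polr2a* CPM was 0.783 and 0.968 in the controls and 0.460 and 0.591 in TRCs, so that both TRC libraries were again the lower ones.

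Among the remaining Pol III subunits, the decrease of *Polr3e* passed the test. *Polr3d* and *Polr3e* form the pair that takes the place of TFIIF in this enzyme and serves in start, termination and reinitiation. *Polr3e* (chromosome 7, 120917744 to 120947432, plus strand) had 59.6 and 56.7 CPM in the controls and 35.9 and 32.5 CPM in TRCs. Replicates were within a few CPM of each other and the groups were well apart, and the log2 fold change was −0.77 (SE 0.21, FDR 0.00951). Its partner *Polr3d* had 21.5 and 24.4 CPM in the controls and 13.1 and 13.5 CPM in TRCs. The size of the *Polr3d* change was similar to that of *Polr3e*, with a log2 fold change of −0.79 (SE 0.25), but its FDR was 0.0609 in the exact test and 0.0168 in DESeq2's Wald test. The *Polr3e* call was lost without TRC replicate 1 (FDR 0.0886) and without TRC replicate 3 (FDR 0.193).

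The subunits *Polr3c* and *Polr3f* form, with *Polr3g* or its close relative *Polr3gl*, the trimer that contacts the initiation factors. *Polr3c* had 69.4 and 62.5 CPM in the controls and 49.3 and 49.5 CPM in TRCs (log2 fold change −0.42, FDR 0.202). *Polr3f* had 42.5 and 59.8 CPM against 39.9 and 39.2 CPM (−0.37, FDR 0.335). TRCs were below the controls in both genes, in *Polr3f* by a small margin from control replicate 1.

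*Polr3g* and *Polr3gl* occupy the same place in the enzyme, and *Polr3g* is known as the form of embryonic stem cells and many tumor cells, *Polr3gl* as the form of most adult tissues. *Polr3g* (chromosome 13, 81673843 to 81711013, minus strand) had 19.8 and 19.98 CPM in the controls and 15.6 and 24.7 CPM in TRCs. The TRC replicates lay on either side of the controls, and the log2 fold change was 0.02 (SE 0.30, FDR 0.98). *Polr3gl* (chromosome 3, 96577872 to 96594181, minus strand) had 12.7 and 5.64 CPM in the controls and 15.4 and 13.9 CPM in TRCs, both above both controls. The controls differed from each other by more than control replicate 1 differed from TRCs. The log2 fold change of 0.67 (SE 0.40) did not pass the test, with an FDR of 0.293. Without control replicate 1 the log2 fold change of *Polr3gl* was 1.38 and it was called higher (FDR 0.018), and without control replicate 3 it was 0.20.

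Per kb of exon, the ratio of *Polr3g* to *Polr3gl* was 0.631 and 1.44 in the controls and 0.412 and 0.720 in TRCs. By CPM it was 1.55 and 3.54 in the controls and 1.02 and 1.78 in TRCs. The ranges overlapped on both scales. Except in control replicate 3, which form stood higher depended on the scale, with exon lengths of 3936 bases for *Polr3g* and 1597 for *Polr3gl*. The promoters of both genes are shown because the subunits are alternatives to each other. They lie at chr13:81711014-81711263, minus strand, and at chr3:96594182-96594431, minus strand.
Polr3g: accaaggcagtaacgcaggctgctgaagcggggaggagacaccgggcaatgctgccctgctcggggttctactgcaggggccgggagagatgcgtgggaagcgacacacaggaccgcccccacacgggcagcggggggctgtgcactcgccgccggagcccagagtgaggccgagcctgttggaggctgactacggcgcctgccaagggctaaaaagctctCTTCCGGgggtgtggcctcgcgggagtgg
Polr3gl: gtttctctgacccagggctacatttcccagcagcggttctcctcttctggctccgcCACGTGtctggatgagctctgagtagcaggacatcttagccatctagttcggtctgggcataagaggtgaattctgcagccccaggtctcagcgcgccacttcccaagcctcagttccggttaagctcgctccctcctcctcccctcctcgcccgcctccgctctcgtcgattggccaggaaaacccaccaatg
The *Polr3g* window held the ETS letters at −29 and the *Polr3gl* window the E-box at −194, and neither held the other's motif.

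The stalk subunit *Crcp* had 33.3 and 36.2 CPM in the controls and 23.1 and 26.6 CPM in TRCs, without overlap (log2 fold change −0.48, FDR 0.199). *Polr3k*, the subunit for RNA cleavage and termination, had 41.5 and 42.5 CPM against 42.5 and 50.5 CPM (0.15, FDR 0.739). The 10 Pol III subunits spanned from −0.79 for *Polr3d* to 0.67 for *Polr3gl*, with a median of −0.39, and 1 of them passed the test. For the 3 Pol I-specific subunits among the members the median was −1.21 and all 3 passed it. The other Pol I-specific subunits measured, which are not members, did not pass it: *Polr1f* was at −0.53 (FDR 0.146), *Polr1g* at −0.58 (FDR 0.369) and *Polr1h* at −0.17 (FDR 0.781). Over all 6, the median was −0.88 and 3 were downregulated, beside 7.05% of all genes tested. Both TRC libraries lay below both controls in each of the 6, a pattern found for 30.4% of all genes tested.

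TFIIIB places Pol III on its start site, with *Brf1* at transfer RNA and ribosomal RNA genes, *Brf2* at genes with an upstream promoter, and *Bdp1* at both. *Brf1* (chromosome 12, 112960085 to 113000704, minus strand) had 48.1 and 46.8 CPM in the controls and 40.5 and 34.2 CPM in TRCs, with a log2 fold change of −0.35 (SE 0.22, FDR 0.343). *Brf2* (chromosome 8, 27123364 to 27128680, minus strand) had 10.98 and 10.8 CPM in the controls and 10.2 and 8.80 CPM in TRCs, with a log2 fold change of −0.20 (SE 0.30, FDR 0.776). Control replicates agreed closely in both genes, and the TRC replicates were lower and further apart. *Bdp1* had 87.5 and 76.3 CPM against 67.7 and 58.6 CPM (−0.38, FDR 0.27). None of the 3 passed the exact test, the quasi-likelihood test or DESeq2's Wald test, and 0 had an unadjusted p under 0.05. In each of them the TRC libraries lay below the controls, a pattern found for 30.4% of all genes tested. Per kb of exon *Brf1* stood above *Brf2* in every library, at 4.39 to 6.17 against 2.74 to 3.42 CPM per kb.

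*Gtf3a* encodes TFIIIA, the zinc finger protein that recognizes the genes of the smallest ribosomal RNA, the Pol III product that joins the Pol I products in the ribosome. *Gtf3a* (chromosome 5, 146948657 to 146955614, plus strand) had 64.1 and 72.5 CPM in the controls and 40.8 and 40.9 CPM in TRCs. The TRC replicates were nearly equal and both were below the controls, and the log2 fold change reached −0.74 (SE 0.21, FDR 0.0104). This call was lost in 3 of 4 smaller sets, where the FDR was 0.11 without control replicate 3, 0.14 without TRC replicate 1 and 0.15 without TRC replicate 3. Of the exon length of *Gtf3a*, 59.1% lies over *Mtif3* on the opposite strand, and the strand setting of the counting is not given in the sources used here. *Mtif3* itself had 16.9 and 14.8 CPM in the controls and 14.7 and 15.6 CPM in TRCs, a log2 fold change of −0.07 (FDR 0.921). The *Gtf3a* promoter (chr5:146948407-146948656, plus strand) is shown as that of the downregulated factor specific to the ribosomal RNA made by Pol III.
Gtf3a: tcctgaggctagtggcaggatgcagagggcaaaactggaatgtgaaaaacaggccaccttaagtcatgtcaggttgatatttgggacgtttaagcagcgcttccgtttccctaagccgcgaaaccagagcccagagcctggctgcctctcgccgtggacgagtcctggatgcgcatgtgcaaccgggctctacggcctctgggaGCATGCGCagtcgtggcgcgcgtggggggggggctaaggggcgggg
Its capitals mark the NRF1 core, read on the minus strand, at −46.

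TFIIIC, which binds the internal promoter of transfer RNA genes and recruits TFIIIB, had members with and without overlap between the groups. *Gtf3c4* had 74.4 and 88.9 CPM in the controls and 58.4 and 59.5 CPM in TRCs (log2 fold change −0.47, FDR 0.145), and *Gtf3c6* 32.7 and 42.6 CPM against 24.9 and 27.4 CPM (−0.53, FDR 0.159). Both TRC libraries were lower in these genes, which did not pass the test. *Gtf3c1*, the largest subunit, had 144 and 176 CPM against 192 and 139 CPM (0.05, FDR 0.921), and *Gtf3c3* 55.9 and 49.4 CPM against 57.1 and 54.6 CPM (0.08, FDR 0.853). *Gtf3c5*, with 37.1 and 44.5 CPM against 35.5 and 43.7 CPM, was at −0.04 (FDR 0.934). In these 3 genes the groups overlapped.

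*Maf1* is the conserved repressor that binds Pol III and keeps it from its promoters when nutrients or growth signals are short. *Maf1* (chromosome 15, 76351294 to 76354380, plus strand) had 73.7 and 75.2 CPM in the controls and 80.9 and 86.9 CPM in TRCs. Both TRC libraries were above both controls, by a margin close to the spread among TRC replicates. The log2 fold change of 0.17 (SE 0.20) did not pass the test, with an FDR of 0.664. Activity of this protein is known to be set by phosphorylation, which counts of its RNA do not measure.

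**Figure D3:**
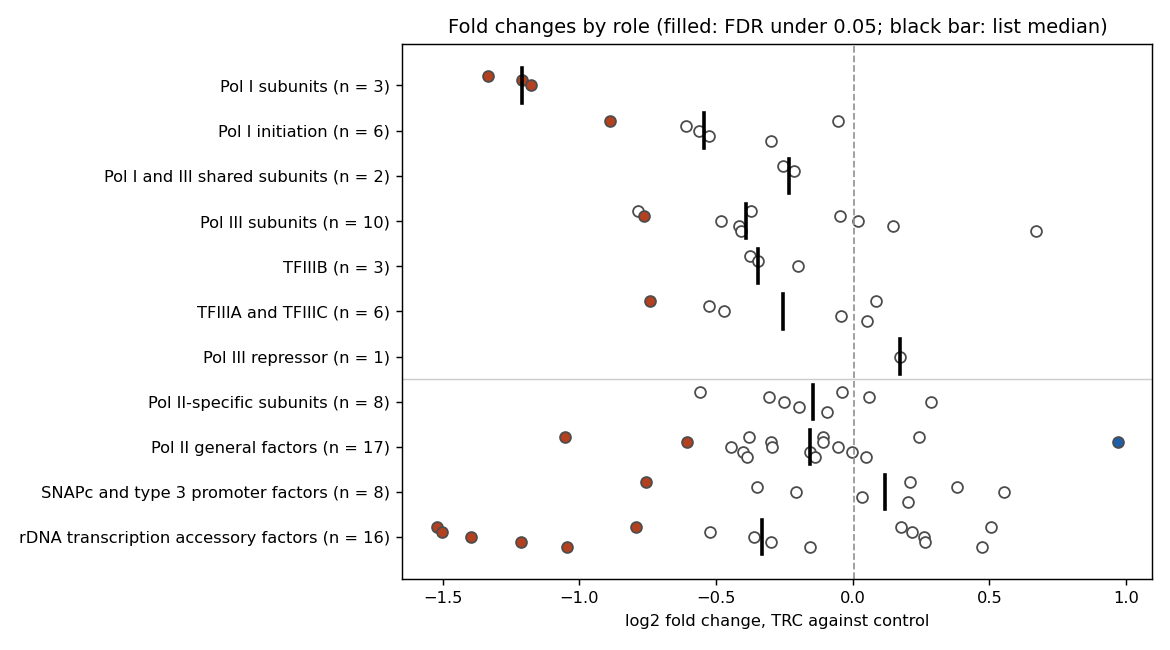
Log2 fold change of TRCs against control for each gene, by role, with members above the grey line and comparison lists below it; filled points have an FDR under 0.05 and black bars are list medians. The 3 Pol I subunits among the members sit between −1.33 and −1.18, below the Pol II-specific subunits, none of which is filled; *Polr1f*, *Polr1g* and *Polr1h* are not plotted.

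Pol I and Pol III members were also set against each other by a single value per library. The mean log2 CPM of the 11 Pol I members minus that of the 20 Pol III members was 0.27 and 0.36 in the controls and −0.09 and −0.06 in TRCs, on the scale of log2 of CPM plus 0.5. TRCs were lower by 0.39 on this scale (group means 0.32 ± 0.0652 and −0.08 ± 0.0171, SD, n = 2 each), and by 0.35 to 0.44 when single libraries were left out. With *Polr1f*, *Polr1g* and *Polr1h* counted as Pol I, an alternative chosen after seeing the data, TRCs were lower by 0.35 and the groups did not overlap. For the subunits among the members alone, 3 of Pol I minus 10 of Pol III, the values were 0.70 and 1.13 in the controls and 0.01 and −0.11 in TRCs. With all 6 Pol I-specific subunits, these values were −0.03 and 0.19 in the controls and −0.54 and −0.45 in TRCs. Against the 8 Pol II-specific subunits, the 3 Pol I subunits stood at −0.31 and −0.14 in the controls and at −1.14 and −1.42 in TRCs, and all 6 at −1.05 and −1.08 in the controls and −1.70 and −1.76 in TRCs. The Pol III members stood at −0.70 and −0.89 in the controls and at −0.78 and −0.99 in TRCs, where the groups overlapped. An exact two-sided permutation test of 2 against 2 libraries cannot give a p below 0.333, and no other test was run on these differences.

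**Figure D4:**
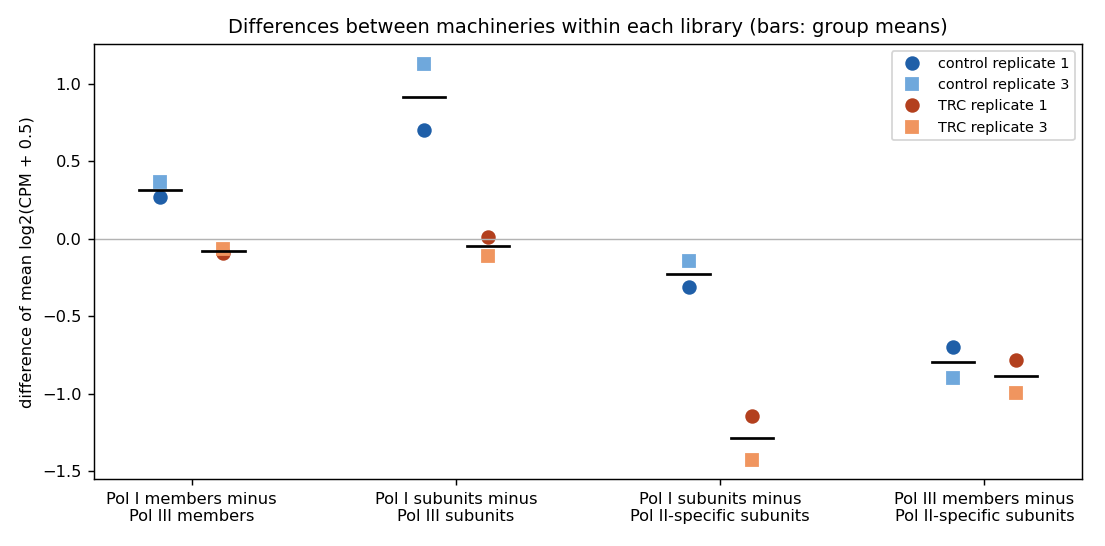
Difference between the mean log2(CPM + 0.5) of one machinery and another within each library, on a log2 axis, with 1 point per library and black bars for group means. TRC libraries sit below the controls where Pol I is set against Pol III or Pol II, and between −0.78 and −0.99 next to controls at −0.70 and −0.89 where Pol III members are set against Pol II-specific subunits.

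Summed over genes, the 11 Pol I members made up 850 and 1036 CPM in the controls and 548 and 585 CPM in TRCs, a ratio of group means of 0.601. The 20 Pol III members made up 1004 and 1072 CPM in the controls and 916 and 868 CPM in TRCs, a ratio of 0.860. Both sums were lower in each TRC library than in each control library. These sums weigh long and abundant transcripts most.

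Other proteins of the same enzymes were examined as a comparison. Of 10 further Pol I, Pol III and common subunits (TBP included), 0 passed the exact test, the quasi-likelihood test or DESeq2's Wald test, 2 had an unadjusted p under 0.05, and the median log2 fold change was −0.32. Among them were log2 fold changes of −0.53 for *Polr1f*, a stalk subunit of Pol I (FDR 0.146), and −0.35 for *Polr2e*, common to all 3 enzymes (FDR 0.352).

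Proteins that work with Pol I on rDNA and in the nucleolus included log2 fold changes below −1.33, the value of *Polr1a*. Of 16 such factors, 6 were downregulated, beside 7.05% of all genes tested, and 5 of them at least 2-fold, beside 2.66%. The quasi-likelihood test called 5 of the 16 lower. The median log2 fold change over the list was −0.33, with 0 upregulated by the exact and the quasi-likelihood tests. Both TRC libraries lay below both controls for 8 of the 16 and above both for 4, patterns found for 30.4% and 30.2% of all genes. *Nop53* (0.51, FDR 0.103) was the 1 factor higher at an unadjusted p under 0.05 and was called by DESeq2's Wald test (adjusted p 0.0434). *Nolc1*, a nucleolar phosphoprotein, had 181 and 221 CPM in the controls and 72.3 and 67.5 CPM in TRCs (−1.52, SE 0.21, FDR 1.94e-08). *Mybbp1a*, a nucleolar protein of ribosomal RNA processing, had 317 and 384 CPM against 115 and 133 CPM (−1.503, SE 0.21, FDR 3.22e-08). *Ddx21*, an RNA helicase of the nucleolus, had 252 and 303 CPM against 107 and 103 CPM (−1.40, SE 0.20, FDR 1.78e-07). In these genes both TRC libraries lay far below both controls.

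Proteins that bind the products of Pol III gave 3 downregulated genes of 7, beside 7.05% of all genes tested, and a median of −0.50 by the exact test. They were *Larp7* (−0.88, FDR 0.00671), *Mepce* (−0.75, FDR 0.0172) and *Hexim1* (−0.65, FDR 0.0479), which belong to the small nuclear ribonucleoprotein that holds the elongation kinase of Pol II inactive. By the quasi-likelihood test *Larp7* alone of the 7 was called, and *Hexim1* was not called by DESeq2's Wald test (adjusted p 0.0518). Of the 8 factors of upstream Pol III promoters, *Snapc4*, the largest subunit of SNAPc, was downregulated (−0.75, FDR 0.0244), a call lost in the quasi-likelihood test (FDR 0.0506), and the list median was 0.12. None of the 8 was upregulated by the 3 tools, with 1 higher at an unadjusted p under 0.05. Among 17 general factors of Pol II, *Gtf2h1* (−1.05, FDR 0.000626) and *Gtf2f1* (−0.60, FDR 0.0487) were downregulated and *Gtf2e2* was upregulated (0.97, FDR 0.000784), with a median of −0.16. The *Gtf2f1* call was lost in the quasi-likelihood test (FDR 0.0677). The products themselves were hardly counted in these polyA libraries. Of 6 Pol III transcripts, *Rn7sk*, *Rny1* and *Rny3* had 0 counts in all libraries. For counting error alone, this allows up to 0.0689 to 0.0835 CPM. Reads with several places in the genome were counted on no gene, so 0 counts do not show that these RNAs were absent. Only *Rmrp* of the 6 was tested, at 4.07 and 2.01 CPM in the controls and 3.06 and 3.10 CPM in TRCs (0.01, FDR 0.994).

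Promoter windows of 300 bases, 250 before and 50 after the most upstream start in RefSeq, were at hand for 25 of the 31 members, among them all 6 that were downregulated. The median C and G content of these 25 windows was 59%, against 52.7% over the promoters of all genes. Its part in the shares that follow was not tested. The ETS letters were in 12 of these windows (48%), against 9.14% of 27025 promoters of all genes and 19.8% of the 8915 promoters of genes tested. Those 12 windows included *Polr1e* and *Gtf3a* of the downregulated genes. The E-box was in 5 windows (20%, against 7.24% of all promoters and 10.7% of genes tested), those of *Rrn3*, *Polr3c*, *Polr3e*, *Polr3gl* and *Gtf3c6*, of which *Polr3e* was downregulated. The NRF1 core was in *Taf1a* and *Gtf3a* (8%, against 2.8% of all and 6.02% of genes tested). The cAMP response element was in *Bdp1* and *Gtf3c1* (8%, against 1.85% and 3.44%) and the YY1 letters were in *Gtf3c6* (4%, against 1.31% and 2.68%). The end of 21 of the 25 windows was found near the start of a GENCODE transcript of the gene. Those of *Taf1a*, *Ubtf*, *Gtf3c3* and *Gtf3c6* were not, so the motifs counted in *Taf1a* and *Gtf3c6* come from such windows. *Ubtf* has 6 starts in RefSeq. No matches in a window share bases, none of the motif counts was tested, and a match is a description of letters and not of binding.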

How the data were processed

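RNA was sequenced from 2 parental B16F1 control and 2 TRC libraries. According to the study's methods and the submitters' processing notes, single-end reads of stranded polyA libraries were trimmed with Trimmomatic 0.35, aligned to GRCm38 with TopHat2 2.1.0 (Bowtie2 2.2.6, SAMtools 1.3) and counted on Ensembl genes with htseq-count, whose strand setting is not given in the sources used here. The deposited values are raw counts per gene, which the authors did not normalize. Reads that were not unique, ambiguous or on no gene were kept out of library sizes; reads on no gene made up 2.95% to 4.25% and ambiguous reads 0.825% to 0.955% of the alignments.

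Genes with under 1 CPM in at least 3 samples were removed. All other genes were scaled by TMM and compared by the exact test of edgeR 4.0.16 (R 4.3.3; tagwise dispersions shrunk to the common one; prior count 0.125), with Benjamini-Hochberg adjustment. Standard errors came from DESeq2 1.42.0, and single-library values are TMM-normalized CPM. The script was tested on simulated data. Gene positions and exon lengths (all annotated exons of a gene joined) are from GENCODE M21, and promoter windows from RefSeq. Plots used matplotlib 3.10.9.

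The members, gene lists, motifs and named genes were chosen with earlier results of these data known. Named genes were all members, with values in every library for those with FDR under 0.05 and for *Polr3a*, *Polr3g*, *Polr3gl*, *Brf1*, *Brf2*, *Maf1* and *Rrn3*, and up to 3 genes of smallest FDR from each comparison list; exceptions are *Polr2b*, as the counterpart of *Polr1b*, *Polr1g* and *Polr1h*, as further Pol I subunits, genes overlapping *Gtf3a* and *Taf1c*, *Nop53* as a count of 1, cell markers, and genes said to be chosen later. A few list genes are not reported here. Alternatives were other filters, scalings, dispersions and tests, a 2-fold threshold, a replicate block and each library left out in turn.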

Additional observations from a re-analysis of the deposited data

How the results depend on the processing

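The number of differentially expressed genes was 1822 by the exact test, 1054 by the quasi-likelihood test, 975 with an added 2-fold change, and 704 to 1965 with single libraries left out. The 4 downregulated Pol I members were 2 to 4 and the 2 Pol III members 0 to 2 in these smaller sets, where the lone library of a group is assumed to vary like the other group. *Polr1a* and *Polr1b* remained without any single library; *Polr1e* and *Ubtf* were lost without control replicate 3 and without either TRC replicate. *Gtf3a* was lost with each of these libraries left out, and *Polr3e* without either TRC replicate. Members called higher numbered 0 to 1, the 1 being *Polr3gl* without control replicate 1. With the 2-fold change, 0 Pol III members were called.

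The median log2 fold change of Pol I members was −0.63 to −0.54 with single libraries left out. That of Pol III members was −0.39 to −0.27, −0.39 without a filter and −0.38 with scaling by library size only. Signs turned in genes near 0 when single libraries were left out: *Taf1b* from −0.30 to 0.23, *Polr3a* from −0.13 to 0.025, *Polr3g* from −0.35 to 0.30, *Gtf3c1* from −0.21 to 0.27, *Gtf3c3* from −0.0046 to 0.18 and *Gtf3c5* from −0.20 to 0.092. *Polr3g* was also at −0.0094 without a filter and −0.018 with library size only. The cause of these moves was not tested. Over all members and alternatives, 371 values kept their direction and their side of the threshold, 13 lost and 6 gained a call, and 13 changed sign.

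Replicate numbers 1 and 3 were not shown to pair the samples: across genes, what sets libraries of the same number apart from their group had a correlation of r = 0.0267. In the quasi-likelihood test with a replicate block, 785 genes were called, with 3 Pol I members (*Polr1e* at an FDR of 0.0697) and 1 Pol III member (*Gtf3a* at 0.0538), and *Polr3g* was at −0.018. With it 0 of the 7 genes that bind Pol III products and 0 of the 8 factors of upstream Pol III promoters were called, and *Gtf2f1* was not (FDR 0.0805). DESeq2's Wald test and dispersions shrunk toward a trend also called *Rrn3* and *Polr3d*, and library size only called *Rrn3*.

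With 2 libraries a group, precision is limited: the largest standard errors of the log2 fold change were 0.40 for *Polr3gl*, 0.32 for *Taf1a* and *Polr1e*, and 0.30 for *Polr3g* and *Brf2*.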

Other observations

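The TFIIF-like pair of each enzyme was set side by side after the values had been seen. In Pol I, the log2 fold change was −1.18 for *Polr1e* (FDR 0.0168) and −0.58 for its partner *Polr1g* (9.47 and 12.2 CPM in the controls, 5.29 and 9.18 CPM in TRCs, FDR 0.369). In Pol III it was −0.79 for *Polr3d* (FDR 0.0609) and −0.77 for *Polr3e* (FDR 0.00951). In Pol II it was −0.60 for *Gtf2f1* (FDR 0.0487) and −0.29 for *Gtf2f2* (35.5 and 38.5 CPM in the controls, 32.3 and 28.1 CPM in TRCs, FDR 0.467). All 6 genes had both TRC libraries below both controls, a pattern found for 30.4% of all genes tested. By the exact test, 3 of the 6 were downregulated, beside 7.05% of all genes tested.

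The longest run of bases shared by any pair of the printed promoters, looked for after they had been read, was CTACATTTCCCAG, with 13 bases. It starts at −21 in *Polr1b* and at −233 in *Polr3gl*. Of the 25 member windows, only these 2 held it on either strand, and they hold it by the way it was found. Their share (8%) can therefore not be compared with that of other promoters. The run was in 0.337% of 27025 promoters of all genes and 0.785% of 8915 promoters of genes tested. *Polr1b* was downregulated, and the *Polr3gl* libraries of TRCs lay above the controls without passing the test.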
